A study of Mus musculus with 8 samples.

Results

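The imprinted fetal growth network genes Igf2, Igf2r, Cdkn1c, Peg3, Dlk1, Plagl1, Mest, Grb10 and Ndn were followed in mouse liver. The members were every probe that the array annotation assigns to these 9 symbols, which gave 14 of the 25697 probes and 9 of the 16593 named genes on the array. Liver RNA from 4 Cic-L-/- samples was compared with liver RNA from 4 wildtype samples, each hybridised to its own single-colour Illumina bead array. All samples were labelled as C57BL, 18 day old. Capicua, the product of Cic, represses transcription through an HMG box, and the L denotes the longer of its forms. The sources used here do not say how the allele was made or whether any cells keep a shorter form. Samples are numbered within each group but not called separate animals, so p-values reflect only the spread among them, which could be technical in part.

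Imprinted genes are read from one parental allele. In most mouse tissues Igf2, Peg3, Dlk1, Plagl1, Mest and Ndn are expressed from the paternal allele, and Igf2r, Cdkn1c and Grb10 from the maternal allele. IGF2 is a fetal growth factor that signals through the IGF1 and insulin receptors, while several maternally expressed members restrain growth. The network is abundant in the fetal liver and declines as growth slows after birth. The arrays report total transcript and do not tell parental alleles apart.

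Of the 8 members bright enough to test, Igf2, Cdkn1c and Peg3 rose in Cic-L-/- liver, by 3.48-fold, 3.11-fold and 2.89-fold. Dlk1, Mest, Grb10, Igf2r and Ndn did not pass the test. Plagl1 was too dim to test in either group. Across the array, 7.39% of the 8255 tested features (genes, or probes with no gene name) were called at an adjusted p under 0.05, and 4.49% were called higher in Cic-L-/-. The 3 member genes called were all higher, from a list chosen with earlier results of these data known. By limma 0 were lower, where 2.9% of all features were. At an unadjusted p under 0.05, 4 members were higher and 0 lower, beside 12.5% and 9.92% of all features, or 22.5% in either direction. The median log2 difference of the 8 tested members was 0.53, beside 0.003 over all tested features. It was 0.20 with detection required on all 8 arrays, and 0.20 without background correction. Peg3, Dlk1 and Mest did not exceed background on all 8 arrays. These 3 were above background on 1, 0 and 3 wildtype arrays and passed the filter on dim probes, which asks for 4 arrays, only with the help of the Cic-L-/- arrays, so the median and the count of tested members are descriptions.

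The promoter windows show how differently the members' start sites are built. CpG pairs, at which imprinted regions carry their methylation marks, are in capitals. Igf2 was chosen as the member with the highest signal and with several start sites, Peg3 as the other paternally expressed member that rose, and Igf2r as the receptor of IGF2 that did not pass the test. Each window is the 250 bases before a RefSeq start site on GRCm38.p6, written 5′ to 3′ on the gene's strand, here minus for all of them. The first Igf2 window lies at chr7:142658805-142659054 and the second at chr7:142666817-142667066, the Peg3 window at chr7:6730420-6730669, and the Igf2r window at chr17:12769707-12769956.
Igf2, CpG-richest window: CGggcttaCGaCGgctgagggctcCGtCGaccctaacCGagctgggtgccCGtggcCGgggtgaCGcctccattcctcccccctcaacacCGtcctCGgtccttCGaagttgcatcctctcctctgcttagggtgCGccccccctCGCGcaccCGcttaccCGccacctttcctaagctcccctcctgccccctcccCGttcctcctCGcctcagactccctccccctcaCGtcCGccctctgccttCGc
Igf2, CpG-poorest window: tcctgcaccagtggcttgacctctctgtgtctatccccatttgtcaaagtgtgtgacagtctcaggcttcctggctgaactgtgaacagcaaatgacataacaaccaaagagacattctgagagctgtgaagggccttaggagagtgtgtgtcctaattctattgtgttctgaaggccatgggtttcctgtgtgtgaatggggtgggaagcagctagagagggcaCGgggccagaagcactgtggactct
Peg3: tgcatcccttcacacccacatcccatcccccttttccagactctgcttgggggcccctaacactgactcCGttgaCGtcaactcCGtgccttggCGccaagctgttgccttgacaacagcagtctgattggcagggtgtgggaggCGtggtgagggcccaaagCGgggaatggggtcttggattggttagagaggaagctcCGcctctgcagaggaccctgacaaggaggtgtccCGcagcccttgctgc
Igf2r: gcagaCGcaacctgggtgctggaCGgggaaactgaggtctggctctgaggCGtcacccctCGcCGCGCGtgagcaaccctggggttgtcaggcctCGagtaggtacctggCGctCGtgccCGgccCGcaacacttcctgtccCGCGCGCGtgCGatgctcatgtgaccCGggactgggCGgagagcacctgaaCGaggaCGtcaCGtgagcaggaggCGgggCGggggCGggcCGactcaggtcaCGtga
The 2 Igf2 windows hold 22 and 1 CpG pairs, the Peg3 window 8 and the Igf2r window 27. RefSeq gave 14 such windows for 8 of the 9 members, all but Cdkn1c. Their CpG counts ran from 1 to 40, at an Igf2 and a Grb10 start site, with a median of 9, beside a median of 6 over 32851 mouse promoters. CIC is known, from fly and human work, to bind octamers. The octamers TGAATGAA, TGAATGGA, TCAATGAA and TCAATGGA, searched on both strands, were found in 0 of the 14 member windows. They were found in 1.08%, 1.01%, 0.642% and 0.521% of all promoters, and at least 1 of them in 3.19%. That says only that these letters are not in these windows. The array does not show which Igf2 start site a transcript came from.

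Igf2 is the growth factor of the network. Its deposited signal, an intensity not normalised between arrays, was 27479, 25371, 22968 and 15100 in Cic-L-/- replicates 1 to 4, against 6844, 5717, 5804 and 4925 in wildtype replicates 1 to 4. After background correction and normalisation, its log2 level was 14.43, 14.51, 14.58 and 13.93 in Cic-L-/- liver and 12.72, 12.62, 12.51 and 12.40 in wildtype liver. Every Cic-L-/- value lay above every wildtype value, and Cic-L-/- replicate 4 was the lowest of its group. The means were 14.36 ± 0.29 in Cic-L-/- and 12.56 ± 0.14 in wildtype (SD, n = 4 each). The log2 difference was 1.80 ± 0.17 (SE), a 3.48-fold rise with a 95% interval of 2.68 to 4.52 (limma, adjusted p = 8.97e-05). The authors' deposited normalised values gave a 3.44-fold difference. Igf2 was a bright transcript in both groups, and its rise was several times the spread between samples.

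Cdkn1c encodes a cyclin-dependent kinase inhibitor that restrains growth. Its deposited signal was 8432, 8167, 7118 and 5440 in the Cic-L-/- samples, against 2373, 2028, 2150 and 1770 in the wildtype samples. The groups did not overlap, and replicate 4 was again the lowest Cic-L-/- sample. Its log2 level averaged 12.66 ± 0.22 in Cic-L-/- and 11.03 ± 0.12 in wildtype (SD, n = 4 each), a difference of 1.64 ± 0.15 (SE). This was a 3.11-fold rise with a 95% interval of 2.46 to 3.93 (limma, adjusted p = 8.90e-05). The growth factor and the growth inhibitor, expressed from opposite parental alleles, both rose, by amounts whose intervals overlap.

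Peg3 encodes a zinc finger protein expressed from the paternal allele. Its deposited signal was 330.7, 214.4, 214.3 and 178.4 in Cic-L-/- liver, against 147.4, 124.4, 148.5 and 124.0 in wildtype liver. The probe exceeded background on 4 Cic-L-/- arrays and on 1 wildtype array. Its log2 level was 7.28, 6.34, 6.52 and 5.67 in Cic-L-/- and 5.20, 4.89, 4.93 and 4.67 in wildtype. All Cic-L-/- values were higher, with the widest spread of the 3 called members. The log2 difference was 1.53 ± 0.28 (SE), or 2.89-fold with a 95% interval of 1.89 to 4.43 (limma, adjusted p = 0.00773). The size depended on the background correction, because most wildtype values lay at background. The deposited normalised values, which carry no background correction, gave 1.45-fold for Peg3 (log2 0.53, adjusted p = 0.0404 over all probes by limma). That fit called 2.85% of probes, and 1.64% higher.

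**Figure D1:**
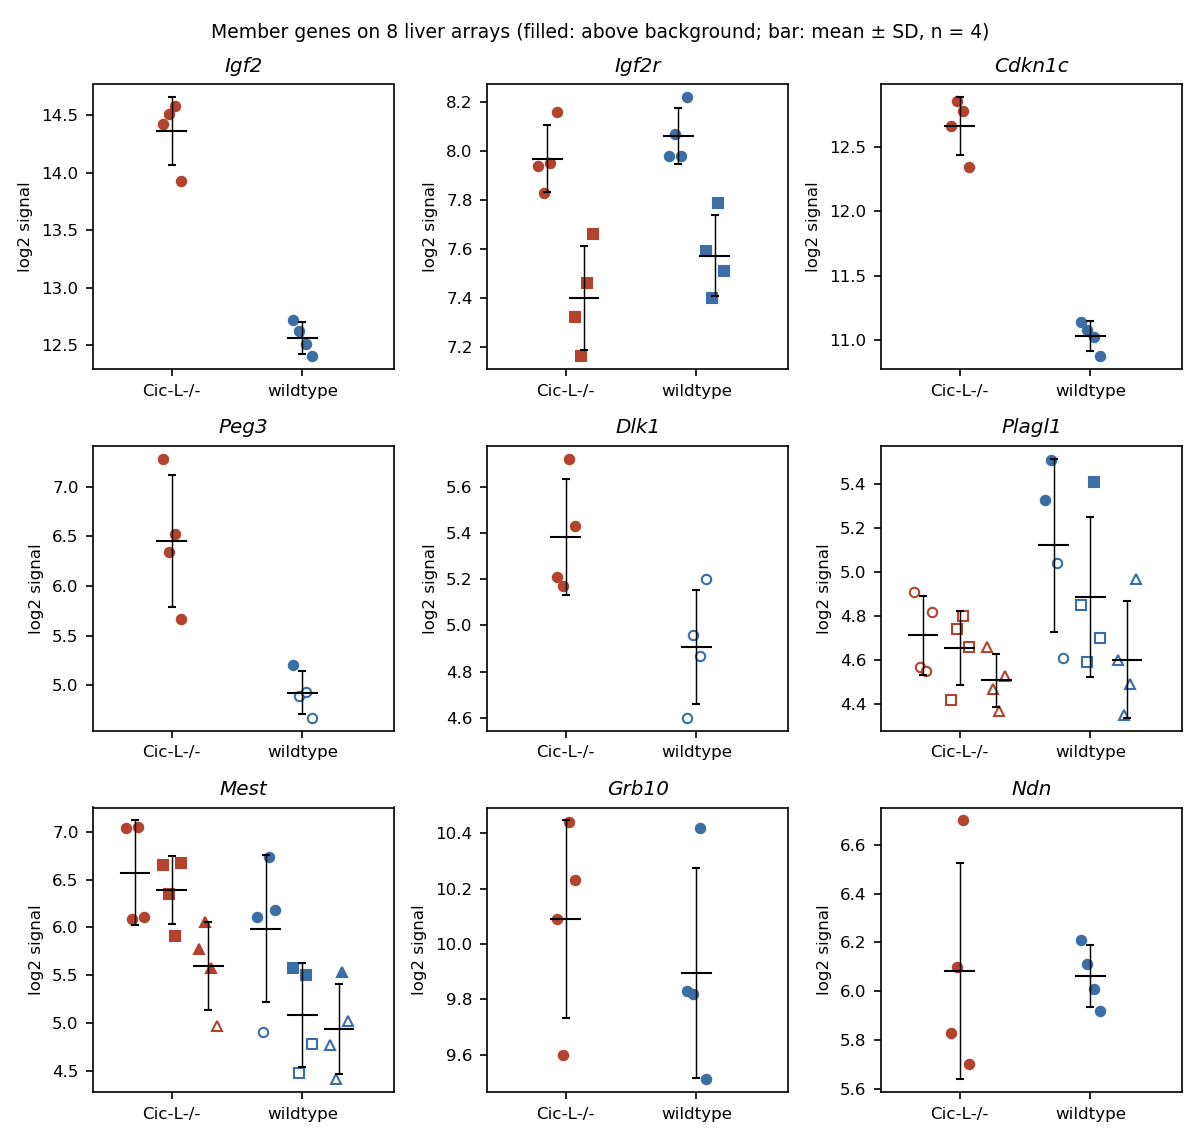
Background-corrected log2 signal (y axis, its own range in each panel) of the 14 probes of the 9 members in each sample, Cic-L-/- left of wildtype, with a symbol shape for each probe of a gene, filled where above background, and bars for the mean ± SD (n = 4). The Cic-L-/- points of Igf2, Cdkn1c, Peg3 and of 1 Mest probe (squares) lie above all their wildtype points, while the groups of the other probes overlap.

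In 3 of the tested members, Igf2, Cdkn1c and Peg3, the 4 Cic-L-/- values stood wholly above the 4 wildtype values. Such a separation in either direction was seen in 15.1% of all tested features, and a higher one in 8.52%. Grb10, Ndn, Mest, Dlk1 and Igf2r overlapped between the groups.

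Dlk1 encodes a membrane protein with EGF-like repeats, a marker of fetal hepatoblasts. Its log2 level was 5.21, 5.17, 5.72 and 5.43 in Cic-L-/- liver and 4.60, 4.96, 4.87 and 5.20 in wildtype liver. The probe exceeded background on 4 Cic-L-/- arrays and on 0 wildtype arrays, yet the lowest Cic-L-/- value lay below the highest wildtype value. The measured log2 means were 5.38 in Cic-L-/- and 4.91 in wildtype, and their difference did not pass the test (limma, adjusted p = 0.138). Since wildtype Dlk1 was at background, its fold is only a bound, at least 1.15-fold against the lowest signal detected on the wildtype arrays, and that bound itself was not tested.

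Mest, a paternally expressed gene for an alpha/beta hydrolase, was read by 3 probes that differed. The probe that stood for the gene gave 7.04, 6.09, 7.05 and 6.11 in Cic-L-/- and 6.11, 4.91, 6.74 and 6.18 in wildtype on the log2 scale. These values overlapped, and the difference was 0.59 ± 0.36 (SE, adjusted p = 0.372 by limma), with a 95% interval of -0.20 to 1.38. The next probe gave 6.65, 6.35, 5.91 and 6.67 in Cic-L-/- and 5.58, 4.48, 5.50 and 4.78 in wildtype. Here the groups did not overlap. Its difference was 1.31, or 2.48-fold (adjusted p = 0.0387 over all probes by limma), in a fit that called 1.86% of probes, and 1.09% higher. The last probe differed by 0.66 (adjusted p = 0.339 over all probes by limma). All 3 Mest probes were higher on average in Cic-L-/- liver. The mean of the kept probes did not pass the test for the gene (log2 difference 0.85, adjusted p = 0.06).

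Grb10 encodes an adaptor that binds the insulin and IGF1 receptors and dampens their signal. Its signal was 1491.7, 960.3, 1465.2 and 1352.2 in Cic-L-/- liver, against 1017.1, 904.5, 1455.9 and 721 in wildtype liver. The groups overlapped widely, with wildtype replicate 3 near the highest Cic-L-/- samples. The log2 difference was 0.20 ± 0.23 (SE, adjusted p = 0.663 by limma), with a 95% interval of -0.30 to 0.69.

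Igf2r encodes the mannose 6-phosphate receptor, which takes up IGF2 and carries it to the lysosome for breakdown. Its brighter probe read 7.94, 7.83, 7.95 and 8.16 in Cic-L-/- and 7.98, 8.07, 7.98 and 8.22 in wildtype on the log2 scale. The values intermingled. The difference was -0.09 ± 0.14 (SE, adjusted p = 0.755 by limma), and its 95% interval of 0.76-fold to 1.16-fold did not reach the size of the Igf2 rise in either direction. The other Igf2r probe differed by -0.17 (adjusted p = 0.708 over all probes). The ligand thus rose without a change that passed the test in its clearing receptor.

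Ndn, which encodes necdin, a MAGE-family growth suppressor, gave 5.83, 6.10, 6.70 and 5.70 in Cic-L-/- and 6.21, 6.11, 6.01 and 5.92 in wildtype. Cic-L-/- samples were both the highest and the lowest. The difference was 0.02 ± 0.21 (SE, adjusted p = 0.965 by limma), with a 95% interval of -0.43 to 0.48. Plagl1 encodes a zinc finger factor that, in the mouse, regulates other genes of this network. None of its 3 probes exceeded background on a Cic-L-/- array, and they did so on 2, 1 and 0 wildtype arrays. Their log2 differences of -0.41, -0.23 and -0.10 had adjusted p-values of 0.418, 0.696 and 0.873 over all probes (limma), so no level of Plagl1 could be compared.

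**Figure D2:**
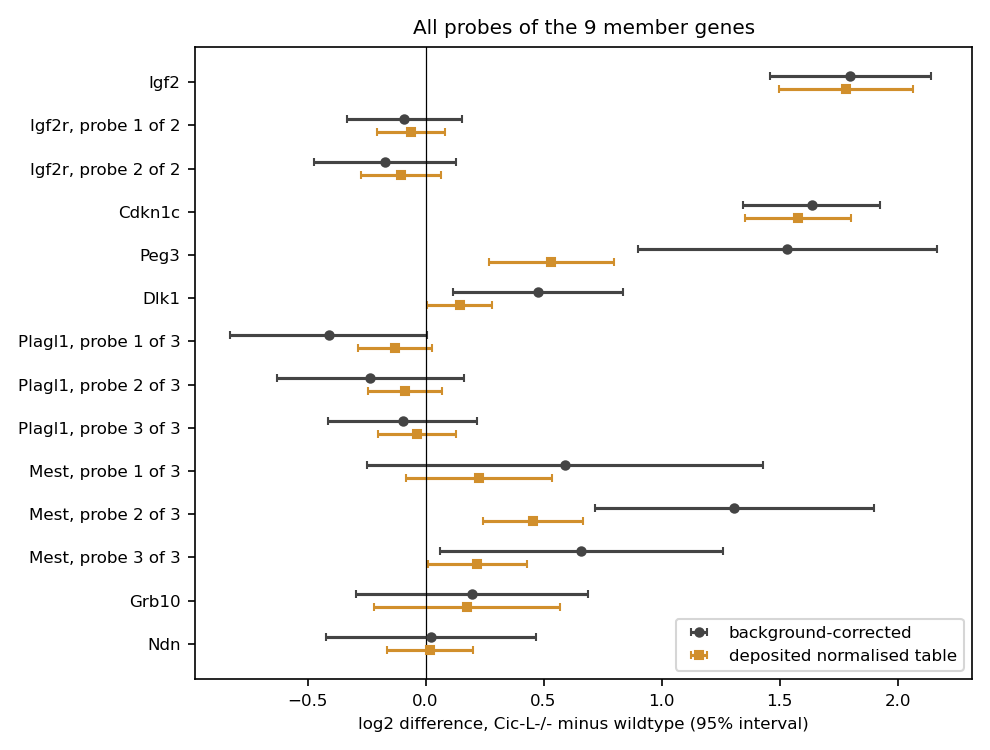
Log2 difference, Cic-L-/- minus wildtype, for all 14 member probes with 95% intervals, from background-corrected values (circles) and from the deposited normalised table (squares). Igf2 and Cdkn1c lie near 1.80 and 1.64 by both, whereas the dim probes of Peg3, Dlk1 and Mest lie nearer to 0 in the deposited table.

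After background correction, the 3 called members rose by like amounts on average. In the deposited normalised values, without that correction, Igf2 and Cdkn1c rose by 1.78 and 1.58 on the log2 scale, but Peg3 by 0.53. Relative to its own wildtype mean, Igf2 stood 1.87, 1.95, 2.02 and 1.37 higher on the log2 scale in Cic-L-/- replicates 1 to 4. Cdkn1c stood 1.64, 1.83, 1.75 and 1.32 higher, and Peg3 2.36, 1.42, 1.60 and 0.75 higher. Replicate 4 was the lowest in each, while the highest was replicate 3 for Igf2, replicate 2 for Cdkn1c and replicate 1 for Peg3. By the root mean square difference of such values over the 8 arrays, which includes the difference between groups, Cdkn1c was the tested gene most like Igf2 and Igf2 the most like Cdkn1c (0.133). Next to Igf2 came Gal3st1 (0.215), a sulfotransferase gene of glycolipid synthesis, and Igfbp2 (0.356), which encodes an IGF-binding protein. Next to Cdkn1c came Gal3st1 (0.164) and Nudt19 (0.276), a coenzyme A hydrolase gene. Nearest to Peg3 were Cdkn1c (0.368), Gal3st1 (0.371) and Igf2 (0.372). All of these likenesses were read from background-corrected values only. Gal3st1 was 3.00-fold higher (adjusted p = 0.000330) and Nudt19 2.62-fold higher (adjusted p = 0.000197) in Cic-L-/- liver by limma. Gal3st1 exceeded background on 2 wildtype arrays, and without background correction it was 1.49-fold higher.

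**Figure D3:**
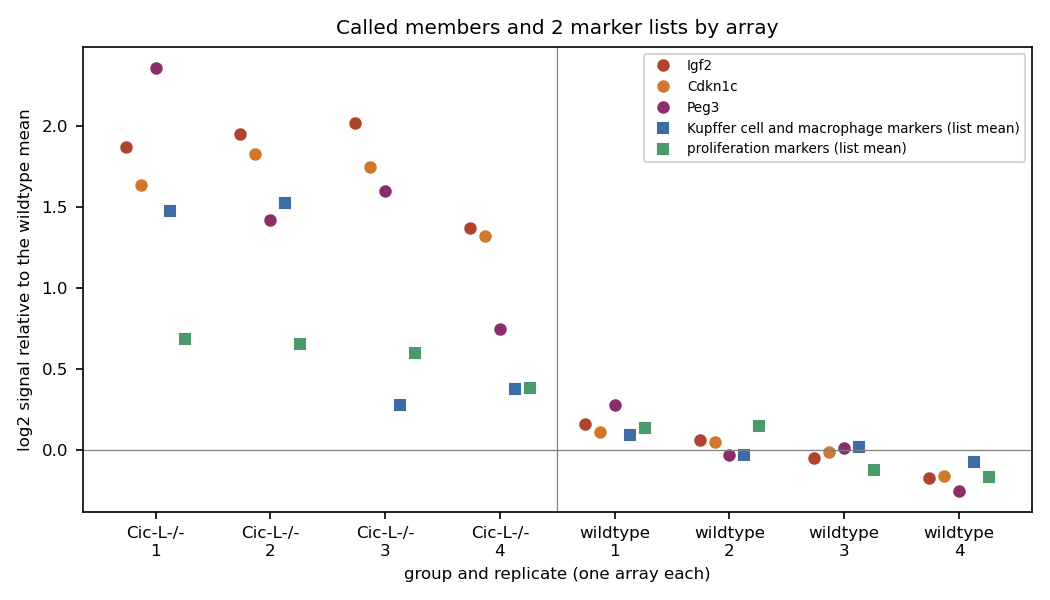
Log2 signal relative to the wildtype mean (y axis) on each array (x axis, Cic-L-/- left of wildtype) for Igf2, Cdkn1c and Peg3 (circles), and the mean over the tested Kupffer cell and proliferation markers (squares). The called members were lowest in Cic-L-/- replicate 4, while the Kupffer markers were high in replicates 1 and 2 (1.48 and 1.53) and lower in replicates 3 and 4 (0.28 and 0.38).

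Imprinted genes lie in clusters, so the neighbours of the members were read as well. Igf2 and Cdkn1c lie in one imprinted stretch of chromosome 7, with 8 protein-coding genes between them. Of these, 3 were bright enough to test, Cd81 (log2 difference -0.12), Tssc4 (0.31) and Kcnq1 (0.09), and 0 were called (limma, 0 also at an unadjusted p under 0.05). Phlda2, another imprinted gene known from this stretch, exceeded background on 0 of 8 arrays. Peg3 and Ndn are also on chromosome 7, as is Cic, with 377 protein-coding genes between Cic and Peg3, 536 to Ndn, 1503 to Igf2 and 1512 to Cdkn1c. Whether sharing the chromosome of the mutated gene bears on these values was not tested.

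Over all members, the 5 nearest protein-coding genes on either side made 88 distinct neighbours. Of the 31 tested, 2 were higher and 1 was lower, near the 4.49% and 2.9% of all features. The other 28 were not called, and the median log2 difference of the tested neighbours was 0.05. Dio3, the imprinted deiodinase gene of the Dlk1 cluster, read 6.24, 6.32, 6.74 and 6.74 in Cic-L-/- and 5.58, 4.75, 5.83 and 5.76 in wildtype. It was 2.04-fold higher without overlap (adjusted p = 0.0251 by limma), a call lost when Cic-L-/- replicate 3, Cic-L-/- replicate 4 or wildtype replicate 1 was left out, and when all probes were adjusted together (highest adjusted p = 0.0632). Without background correction it was 1.29-fold higher. Lsp1, a leukocyte actin-binding gene near Igf2, was 1.77-fold higher (adjusted p = 0.0144 by limma). Ddc, the neighbour of Grb10 for aromatic amino acid decarboxylase, which was listed as imprinted, fell in Cic-L-/- and was 1.65-fold higher in wildtype (adjusted p = 0.0430 by limma). The Ddc call was lost in 11 of 20 alternative settings (highest adjusted p = 0.109), which include leaving out each Cic-L-/- sample in turn and wildtype replicates 1, 3 or 4.

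**Figure D4:**
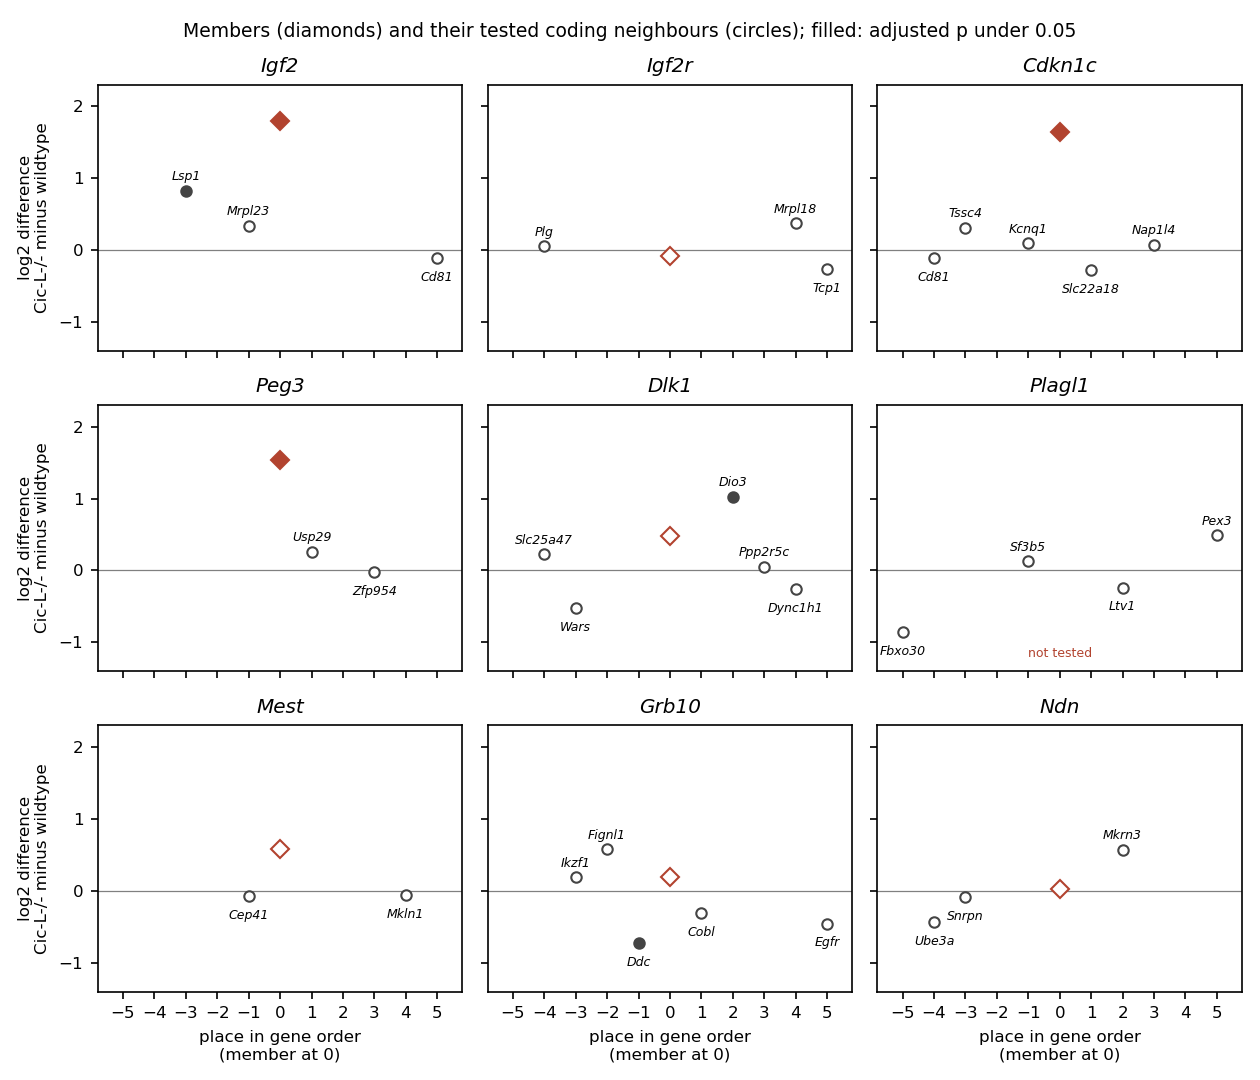
Log2 difference, Cic-L-/- minus wildtype (y axis), of tested members and of their tested neighbours in gene order (x axis, place relative to the member, in genes), a panel per member. Igf2, Cdkn1c and Peg3 stand above neighbours that mostly lie near 0, with Dio3 (1.03) and Lsp1 (0.83) the neighbours called higher.

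Among 65 other imprinted genes listed, 48 had a named probe and 23 were tested. Of these 1, Dio3, was called higher and 1, Ddc, lower, beside 4.49% and 2.9% of all features. The list's median log2 difference was -0.06. A further 18 with a probe exceeded background on no array. Mkrn3, close to Ndn on chromosome 7, differed by 0.58 (adjusted p = 0.0951 by limma). Slc38a4, an amino acid transporter gene imprinted in mouse, differed by -0.27 (adjusted p = 0.636 by limma). H19 and Meg3, the noncoding partners of Igf2 and Dlk1, were not analysed here. Which of the listed genes are imprinted in liver was not tested.

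In the wider IGF system, 2 of 10 tested genes rose and 2 fell, beside 4.49% and 2.9% of all features. The other 6 did not pass the test, and the list's median log2 difference was -0.14. Igfbp2 was 4.13-fold higher in Cic-L-/- (adjusted p = 0.000282 by limma), and its other probe was also higher (log2 1.90). Igf2bp3, which encodes a fetal RNA-binding protein of Igf2 mRNA, was 1.79-fold higher (adjusted p = 0.00839), a call lost without wildtype replicate 2 (adjusted p = 0.06). Igf1, the postnatal growth factor, read 10.56, 10.59, 11.16 and 10.92 in Cic-L-/- and 11.78, 11.75, 11.73 and 11.93 in wildtype. It fell without overlap, by 0.99 ± 0.16 on the log2 scale (SE, adjusted p = 0.00509 by limma). Igfals, the partner that holds IGFs in serum complexes, fell by 1.23 (adjusted p = 0.00301). Igf1r and Igf2bp1 exceeded background on 0 of 8 arrays. Igf2 and Igf1 thus differed from wildtype in opposite directions.

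Below the receptors, 0 of 13 tested insulin and IGF signalling genes were called by limma, and 4 had an unadjusted p under 0.05, all lower, where 9.92% of all features were lower at that threshold. The list's median log2 difference was -0.26. Of 14 tested mannose 6-phosphate sorting and lysosomal genes, 0 were called and 1 had an unadjusted p under 0.05, where 22.5% of all features did. In the Notch pathway, on which DLK1 is known to act, 1 of 10 tested genes, Notch1, was called lower (log2 difference -0.62, adjusted p = 0.0494 by limma), beside 2.9% of all features. That call was lost in 15 of 20 alternative settings, including each with 1 sample left out.

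Cdkn1c belongs to the regulators of entry into the cell cycle. Of 14 tested CDK inhibitor and G1 genes, 3 were called higher, all D-type cyclins, and 0 lower, beside 4.49% and 2.9% of all features. At an unadjusted p under 0.05, 1 was lower, where 9.92% of all features were. Ccnd3 was 1.81-fold higher (adjusted p = 0.00348) and Ccnd2 1.69-fold higher (adjusted p = 0.00815) in Cic-L-/- liver by limma. Ccnd1 was 1.46-fold higher (adjusted p = 0.0437), a call lost on leaving out any 1 of the 8 samples (highest adjusted p = 0.105). The related inhibitors Cdkn1a and Cdkn1b differed by -0.63 (adjusted p = 0.0891) and 0.30 (adjusted p = 0.368). Neither relative of Cdkn1c passed the test.

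Genes outside imprinting that also decline in the liver after birth were read beside the members. The list was chosen with earlier results of these data known. Of 10 tested, 4 rose and 0 fell by limma (0 also at an unadjusted p under 0.05), beside 4.49% and 2.9% of all features. The other 6 tested were not called, and a further 6 with a probe exceeded background on no array. The median log2 difference of the tested genes was 0.48. Afp, the fetal serum protein alpha-fetoprotein, read 9.57, 9.93, 9.21 and 7.38 in Cic-L-/- and 6.88, 6.18, 5.71 and 5.75 in wildtype. It did not overlap, and Cic-L-/- replicate 4 was again the lowest of its group. Afp was 7.43-fold higher (adjusted p = 0.00430), or 3.51-fold without background correction. Bex2 was 2.27-fold higher (adjusted p = 0.00400), or 1.44-fold without that correction, Ezh2, a Polycomb methyltransferase gene, 1.85-fold higher (adjusted p = 0.00339), and Igf2bp3 was the other riser. Gpc3, a glypican gene that shares this decline, differed by 0.58 (adjusted p = 0.0950 by limma).

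Genes listed as regulators of Afp and H19 were read in the same way, without sorting activators from silencers. Of 5 tested, 1 was lower, Foxa1, by 1.21 on the log2 scale (adjusted p = 0.00138 by limma), beside 2.9% of all features. Zhx2, known for silencing Afp and H19 in adult mouse liver, differed by 0.33 (adjusted p = 0.676), and Zfhx3 by -0.05 (adjusted p = 0.896). Zbtb20 was not analysed here. Of 11 tested imprint maintenance and DNA methylation genes, 0 were called by limma and 3 had an unadjusted p under 0.05, where 22.5% of all features did. Trim28 had the lowest adjusted p among them, 0.0836, with a difference of 0.45.

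**Figure D5:**
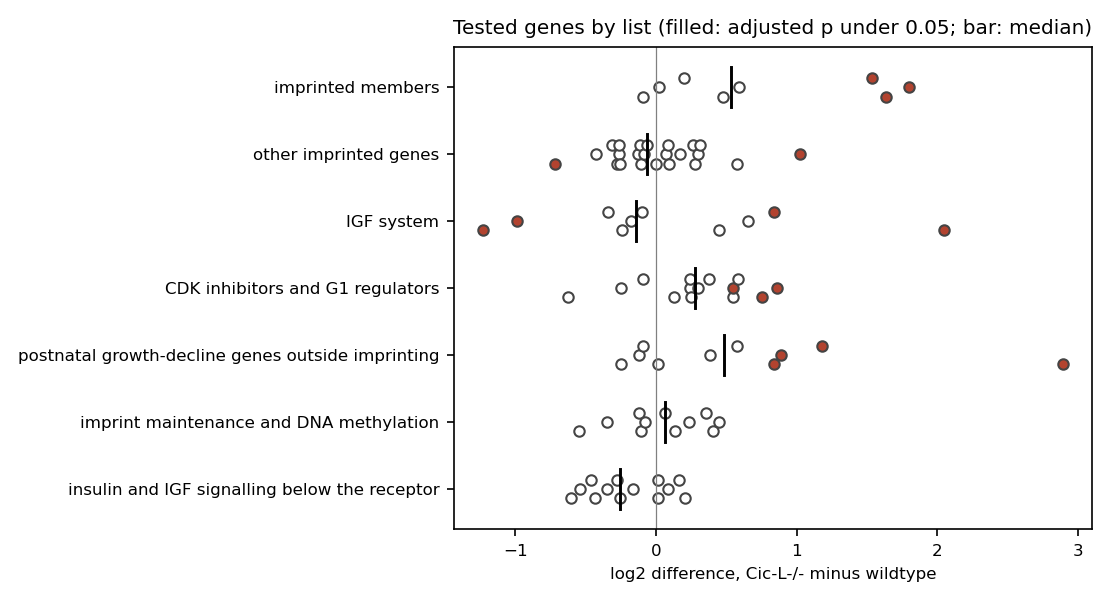
Log2 difference, Cic-L-/- minus wildtype (x axis), of each tested gene in 7 of the gene lists (y axis), with a bar at each list's median and called genes filled. The imprinted members have a median of 0.53, the other imprinted genes of -0.06 and the postnatal growth-decline genes of 0.48. The member median is a description, because Peg3, Dlk1 and Mest passed the filter on dim probes only with the help of the Cic-L-/- arrays. It was 0.20 with detection required on every array, and 0.20 without background correction.

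Cell type markers were read because fewer cells of a type and less RNA per cell cannot be told apart in whole liver. Of 14 hepatocyte markers with a probe, 12 were bright enough to test and 0 were called by limma. At an unadjusted p under 0.05 there were 2, where 22.5% of all features passed. The probe listed for Alb was dim, and Fgb and Tat exceeded background on no array. Of 10 tested Kupffer cell markers, 3 rose, beside 4.49% of all features: Adgre1 (2.74-fold), C1qc (2.26-fold) and Marco (5.92-fold). Marco exceeded background on 1 wildtype array, and without background correction it was 2.40-fold higher and not called (adjusted p = 0.0528). In the list, 1 was called without Cic-L-/- replicate 1 and 1 without replicate 2, and the Marco call was lost in 8 of 19 alternative settings. Their sum was 4625 to 10170 in Cic-L-/- and 3801 to 4014 in wildtype, and Cd5l exceeded background on no array. Of 11 tested proliferation markers, 5 rose (Birc5 2.02-fold, Tk1 1.75-fold, Mcm6 1.66-fold, Plk1 1.99-fold and Aurka 1.66-fold), beside 4.49% of all features. The proliferation marker sums were 3193 to 3982 in Cic-L-/- and 2173 to 2366 in wildtype. Without Cic-L-/- replicate 1 the proliferation count was 3, and the Aurka call was lost in 7 of 20 alternative settings. Over Cic-L-/- replicates 1 to 4, the mean of the tested Kupffer markers stood 1.48, 1.53, 0.28 and 0.38 above its wildtype mean on the log2 scale, and that of the proliferation markers 0.69, 0.66, 0.60 and 0.39. Replicate 4, the lowest for Igf2, Cdkn1c and Peg3, was also the lowest for proliferation markers and near the lowest for Kupffer markers. Replicate 3, the lowest for Kupffer markers (0.28), was the highest for Igf2 (2.02), with Cdkn1c at 1.75 and Peg3 at 1.60 above their wildtype means. The part of either marker list in the members' values was not tested.

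No call was made among 6 erythroid, 8 stellate cell and 11 endothelial markers tested, by limma. At an unadjusted p under 0.05, which 22.5% of all features reached, there were 0, 2 and 3. Of the cholangiocyte and progenitor markers, 0 were bright enough to test, and Krt19, Cftr, Cd24a and Prom1 exceeded background on no array.

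On each array, 38.7% to 43.5% of probes were above background. Control entries had a median signal of 138.5 to 141.9 on Cic-L-/- arrays and 114.2 to 136.3 on wildtype arrays. The 1 Cic probe exceeded background on 0 of 8 arrays, with mean log2 levels of 4.43 in Cic-L-/- and 4.66 in wildtype (adjusted p = 0.504 over all probes), and its place on the transcript is unknown here, so it checks nothing about the deletion. With 4 arrays in each group, their number limits the precision of every interval.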

How the data were processed

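Liver RNA of 4 Cic-L-/- and 4 wildtype samples was read on Illumina bead arrays. The deposited intensity values were not normalised between arrays by the authors. The deposited log2 values were made by quantile normalisation without background subtraction, as tested on the values (within 5e-05), and the series matrix held the same values. The sources used here name neither scanner nor software.

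The 1124 entries without a probe ID were taken as negative controls, a reading of the values. Background was corrected with normexp on these (limma 3.58.1, R 4.3.3, offset 16). Quantile normalisation was then applied on the log2 scale. Probes brighter than 95% of controls on at least 4 arrays were kept (10300), and the brightest kept probe stood for a gene, giving 8255 features. Groups were compared with limma (two-sided, Benjamini-Hochberg, called at an adjusted p under 0.05). Offsets understate changes of dim probes. A fold of at least a value sets the mean of the brighter group against the lowest detected signal on each array of the other. A marker sum adds the tested markers' normalised signals on an array. Each member probe was also fitted among all 25697 probes. Gene order and promoter windows came from RefSeq (GRCm38.p6). The fit was tested on simulated data.

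The members and lists were chosen with earlier results of these data known. Named genes were the members, up to 4 called genes per list with the smallest adjusted p, the 3 genes most like each called member, called neighbours, and a set of further growth and silencing genes (Cic, Igf1, Igf1r, Igf2bp1, Igf2bp3, Afp, Gpc3, Slc38a4, Zhx2 and Zfhx3, with H19, Meg3 and Zbtb20). Phlda2, Mkrn3, Cdkn1a, Cdkn1b, Alb, Trim28, Aurka and the genes between Igf2 and Cdkn1c were named outside that rule, after their values were seen. So were Fgb, Tat, Cd5l, Krt19, Cftr, Cd24a and Prom1. Same-numbered samples of the groups did not deviate together (correlations -0.03 to 0.05), so the numbers were not used as pairs. Alternatives covered background, scaling, filters, probe choice, weights and leaving out each sample.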

Additional observations from a re-analysis of the deposited data

How the results depend on the processing

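Igf2 and Cdkn1c kept their direction and call in all 20 alternatives (log2 1.65 to 1.94 and 1.54 to 1.78, highest adjusted p 0.000726 and 0.000717). Peg3 kept both in all 19 that could test it (0.53 to 1.79, adjusted p 0.00207 to 0.0273). Requiring detection on all 8 arrays dropped Peg3, Dlk1 and Mest, left 2 member genes called and gave a median of the tested members of 0.20 (0.1957), while no background correction gave 0.2016. Leaving out 1 sample gave medians of 0.36 to 0.75. The Igf2r difference reversed to 0.12 with median centring (adjusted p = 0.659). That scaling moved the median of all features to 0.165, and Igf2, Cdkn1c and Peg3 lay 1.72, 1.61 and 1.47 above it. Ndn reversed to -0.02 with 75th percentile centring (-0.01833) and ran from -0.18 to 0.15 on leaving out 1 sample, negative without Cic-L-/- replicate 3 (-0.1848) or wildtype replicate 4 (-0.02547). At the gene level, no Dlk1, Mest, Grb10, Igf2r or Ndn difference was called in any alternative that tested it, while 1 Mest probe that did not stand for the gene was called among all probes (adjusted p = 0.0387, and 0.0304 in the deposited values).

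Called features numbered 310 to 611 with 1 sample left out (higher 178 to 359, lower 132 to 252), against 610 with all samples. They were fewest without Cic-L-/- replicates 1 (310) and 2 (333), and wildtype replicates 1 (372), 2 (375) and 4 (384). Median centring called 683 higher and 134 lower, so that 83.6% of calls were higher, beside 60.8% with quantile and 49.8% with 75th percentile scaling. With the replicate block, 467 features were called and Igf2, Cdkn1c and Peg3 stayed called (adjusted p = 0.000535, 0.000717 and 0.00446). The replicate block also gave 1 other imprinted gene and 0 Notch genes called, as did the absence of a detection filter. No background correction gave 1 called imprint maintenance gene, 0 Notch, 1 hepatocyte and 1 endothelial marker. Median centring gave 1 imprint maintenance, 1 stellate and 1 endothelial gene. With 1 sample left out, called members ran from 0 to 2 for other imprinted genes, from 0 to 1 for insulin signalling, imprint maintenance, hepatocyte, stellate and endothelial lists, from 1 to 4 for Kupffer and from 3 to 5 for proliferation markers, with 0 for Notch throughout. The causes of these moves were not tested. Signal near background limits what can be said of Peg3, Dlk1, Mest and Plagl1.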
